A study of Mus musculus with 6 samples.

Results

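DNA replication genes encode the machinery that copies the genome in S phase, and here they are the 37 genes of a list chosen by symbol, 37 of the 15106 genes in the count table. Transcripts were counted in 4 libraries of regulatory T cells (Tregs, the suppressive T cells that express FOXP3) and in 2 libraries of effector T cells (Teffs). All 6 came from the skin of FOXP3-GFP mice at an age of 6 weeks, and no treatment is named, so Tregs and Teffs share the reporter allele. The labels name neither the gate behind the Teffs nor the animal behind each library. A p-value therefore reflects how far these libraries spread, which may be technical. The design asks how these T cell populations of the skin differ. It is described here for the genes of DNA synthesis.

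Replication begins when ORC, CDC6 and CDT1 load the ring-shaped MCM2-7 helicase onto origins during G1. Cyclin E with its kinase and a second kinase then switch the helicase on by adding CDC45 and the GINS complex. Polymerase alpha with primase starts each strand, polymerases delta and epsilon extend it on the PCNA clamp, and FEN1 and LIG1 join the fragments of the lagging strand. E2F transcription factors switch on most of these genes at the G1/S boundary, so their transcripts are abundant in cycling T cells and scarce in resting ones. In a bulk library, fewer cycling cells and less RNA of these genes per cell cannot be told apart.

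The libraries held 4902126 to 7468778 counts in genes, so 3 counts corresponded to 0.397 to 0.581 CPM (counts scaled to a common normalised library size). Foxp3 ranged from 103 to 233 CPM over the Tregs, against 11.3 and 7.17 CPM for the Teffs. Values of a group follow the order of its library numbers, Treg 1 to Treg 4 or Teff 1 and Teff 2. The 6 T cell markers in the table, Cd3d, Cd3e, Cd3g, Cd4, Lck and Ptprc, had counts in every library. Their sum was 9916, 7342, 5368 and 8646 CPM over the Tregs, all below the Teffs (10396 and 10472 CPM). By gene, this held for Lck alone (1099 to 2175 CPM in Tregs, against 2490 and 3018 CPM). Ptprc was highest in Treg 1 (5365 CPM, against 4036 and 3586 CPM in Teffs) and Cd3d in Treg 2 (753 CPM, against 559 and 650 CPM). Cd3e, Cd3g and Cd4 overlapped between the groups. The sum of 4 endothelial markers was also lower in Tregs (16.1 to 68.7 CPM, against 88.8 and 121 CPM). It was mostly Pecam1 (16.1 to 58.2 CPM, against 82.3 and 121 CPM). Of the other endothelial markers, Cdh5 and Emcn were highest in Treg 3 (7.89 and 2.63 CPM) and Vwf in Teff 1 (3.84 CPM). Among the 3 natural killer and gamma-delta T cell markers in the table, Cd163l1 had counts in Teffs only (8.21 and 14.9 CPM). Ncr1 had counts in Teff 2 only (8.72 CPM), and Klrb1c was highest in Treg 4 (24.0 CPM). Treg 3 stood apart, with 7 fibroblast markers summing to 2923 CPM (4.28 to 10.1 CPM for the other Tregs, 323 and 8.14 CPM for the Teffs). The 8 keratinocyte markers in the table summed to 966 CPM in Treg 3, to 21.3 to 29.0 CPM in the other Tregs and to 162 and 64.7 CPM in Teffs. The 6 myeloid and dendritic markers in the table summed to 2488 CPM in Treg 4, to 179 to 863 CPM in the other Tregs and to 614 and 1387 CPM in Teffs. H2-Aa alone gave 1882 CPM of the sum in Treg 4, and Lyz2, Fcer1g and Itgax were also highest there. Csf1r, at 0.713 CPM in Treg 4, was highest in Treg 1 (78.1 CPM), and Cd68 was highest in Teff 1 (44.2 CPM). Treg 4 was the highest Treg library for Gins1, Gins2, Gins3, Pold1, Tk1 and Rfc5, among others, and Treg 3 for Mcm2, Mcm10, Rfc3 and Chaf1a, among others. The part of these marker differences in the values of the members was not tested. Treg 1 and Treg 2 had fewer detected genes, 9602 and 9838, than the other libraries, which had 11074 to 13197.

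None of the 37 genes passed the test between Tregs and Teffs, and their fold changes leaned to one side. All 37 passed the filter on low counts. The log2 fold change, coded Treg minus Teff, was negative for 31 of them (46.6% of the 11775 genes tested were negative). Its median was -1.09 for the replication genes and 0.07 over all genes tested. It was -1 or less for 19 members, against 14.5% of all genes. In edgeR's quasi-likelihood test with Benjamini-Hochberg adjustment over all genes, 0 members were called (0.0425% of all genes were, 0.00849% as lower in Tregs), and the adjusted p was 1.0 for every member. At an unadjusted p under 0.05 there was 1 member, Fen1, lower in Tregs (4.73% of all genes passed this mark, 2.31% lower and 2.42% higher in Tregs). DESeq2 called 0 of the 36 members that it gave an adjusted p, with 1 at an unadjusted p under 0.05 (2.08% and 6.19% of genes). In the authors' deposited table, 0 members had an FDR under 0.05 (0.285% of genes did), 1 member had a p under 0.05 (2.91% of genes did), and the sign of all 37 fold changes was the one found here.

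**Figure D1:**
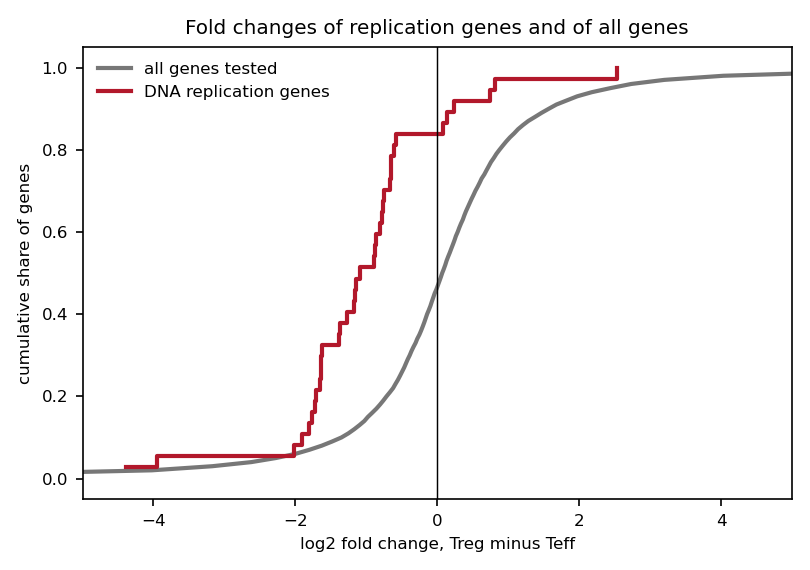
Cumulative share of genes (y axis) by log2 fold change, Treg minus Teff (x axis, drawn from -5 to 5), for all 11775 genes tested (grey) and the 37 replication genes (red). The red curve lies to the left of the grey one over most of its range, with medians of -1.09 and 0.07.

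All 4 Treg libraries lay below both Teff libraries for 12 members, Mcm5, Gins3, Cdc6, Pola1, Pole, Pcna, Fen1, Lig1, Tyms, Uhrf1, Ccne1 and Ccne2, where 9.49% of all genes did. All 4 lay above both for Mcm6 alone, where 5.51% of all genes did. Gins3 and Cdc6 had counts in a single Treg library, so they passed the filter on low counts only through the Teffs. Their place below both Teffs, and their negative sign, was thus partly set by the filter. The share over all genes includes other genes of this kind. The count below both depended on the libraries present: it was 18 without Treg 3 or without Treg 4 and 26 without Teff 2, while the share over all genes was 15.8%, 14.3% and 18.9%.

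The spread was wide within Tregs. The summed level of the 37 genes was 2629, 1373, 2398 and 2219 CPM over the Tregs, against 4549 and 2797 CPM for the Teffs. All Treg sums lay below both Teff sums, with Treg 1 the closest to Teff 2. Rpa1 alone gave 875 CPM of the sum in Treg 1. Teff 1 was the highest of the 6 libraries for 24 of the 37 members, where it was highest for 12.5% of all genes tested. Without Teff 1 the median log2 fold change was -0.70 (0.23 over all genes), with 30 of 37 negative.

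Members without a single count were found in Tregs only. They numbered 13 in Treg 1, 5 in Treg 2, 1 in Treg 3 and 1 in Treg 4, and 0 in each Teff library. All 13 were the same genes: each gene at 0 in any library was also at 0 in Treg 1. The share of members at 0 in Treg 1 was 35.1%, against 21.6% of all genes tested. In Treg 2 these shares were 13.5% and 19.9%, so there the members were not at 0 more often than other genes. The share was 2.70% of members in Treg 3 and in Treg 4, against 5.90% and 11.3% of all genes tested. In Teff 1 and Teff 2, 2.23% and 7.10% of all genes tested were at 0. Taken over the 6 libraries, 35.1% of members and 33.4% of all genes tested had a 0 in at least 1 library. Detection in Treg 1 and Treg 2 was low over all genes, and its part in the low values of the members was not tested.

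**Figure D2:**
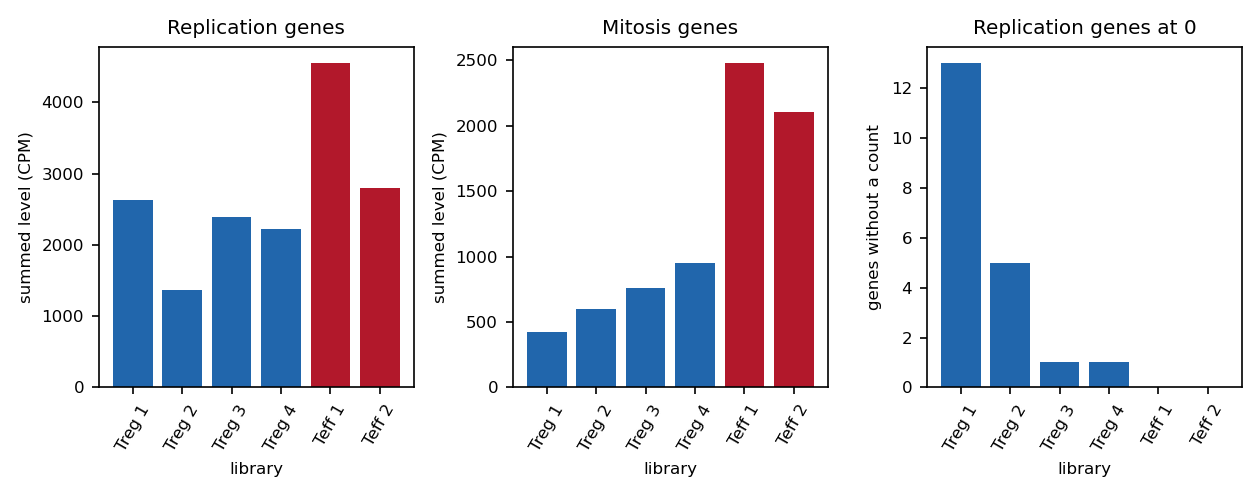
Bars give, for each library (x axis), the summed level in CPM of the 37 replication genes (left), that of 20 mitosis genes (middle) and the number of replication genes without a count (right), with Tregs in blue and Teffs in red. Replication sums are 1373 to 2629 CPM in Tregs against 4549 and 2797 CPM in Teffs, and Treg 1 has 13 genes without a count.

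**Figure D3:**
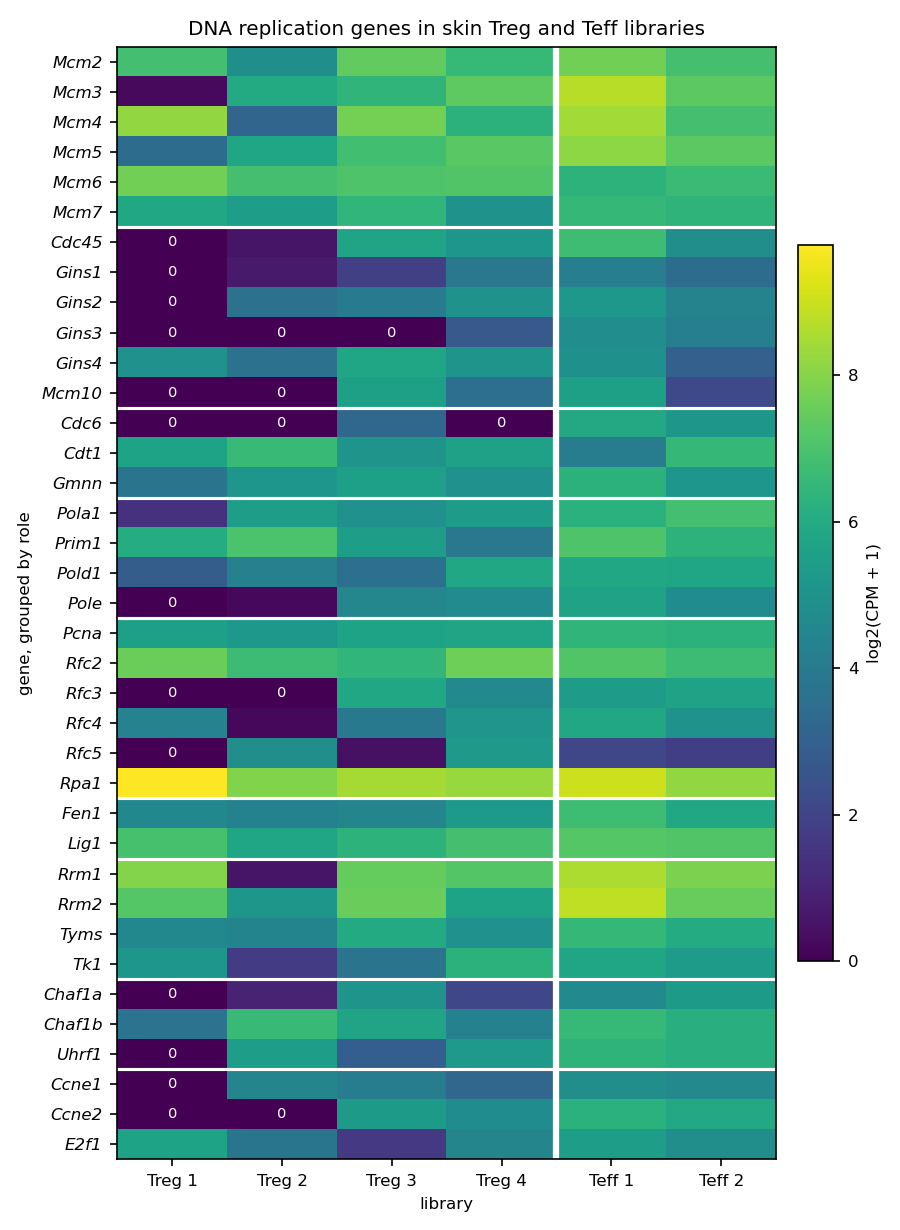
Heat map of log2(CPM + 1) for the 37 genes (rows, with white lines between role groups) in 4 Treg and 2 Teff libraries (columns), where 0 marks a gene without a count. The zeros stand in Tregs alone, 13 of them in Treg 1, and Rpa1 is the brightest row.

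The MCM2-7 helicase unwinds DNA ahead of the fork, and its 6 subunits act as a ring with 1 copy of each. Of these subunits, 5 had a negative log2 fold change and Mcm6 a positive one. Mcm5 was at 9.92, 53.9, 113 and 154 CPM in Tregs, against 272 and 158 CPM in Teffs. Every Treg library lay below both Teffs, Treg 4 by a small margin (log2 fold change -1.38 ± 0.86 (SE), edgeR unadjusted p = 0.147). Mcm6 was at 205, 117, 133 and 137 CPM in Tregs and at 78.0 and 99.4 CPM in Teffs. It lay on the other side in every library (0.74 ± 0.44, edgeR unadjusted p = 0.128), and its 95% interval of -0.27 to 1.74 leaves out a 2-fold lower level in Tregs. Mcm3 ran from 0.180 CPM in Treg 1 to 164 CPM in Treg 4 and was at 419.9 and 159 CPM in Teffs, so Treg 4 overlapped Teff 2. Mcm4 was uneven in another order, with 289 and 212 CPM in Treg 1 and Treg 3 and 8.16 and 75.8 CPM in Treg 2 and Treg 4, against 341 and 116 CPM in Teffs. Mcm2 (102 ± 59.5 CPM (SD, n = 4) in Tregs against 160.2 ± 61.9 CPM (SD, n = 2) in Teffs) and Mcm7 (54.1 ± 23.1 against 86.0 ± 5.92 CPM) also overlapped between groups. The low subunit thus differed between libraries: Mcm3 and Mcm5 were lowest in Treg 1, Mcm2 and Mcm4 in Treg 2 and Mcm7 in Treg 4.

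Per kilobase of exon, the subunit levels in Teffs ran from 19.01 CPM per kb (Mcm6) and 19.4 (Mcm7) through 23.0 (Mcm2), 53.8 (Mcm5) and 63.7 (Mcm4) to 77.2 (Mcm3). In Tregs they ran from 12.2 (Mcm7) and 14.7 (Mcm2) through 20.6 (Mcm3), 20.7 (Mcm5) and 31.7 (Mcm6) to 40.7 (Mcm4). Mcm6 was thus the lowest subunit in Teffs and second to Mcm4 in Tregs on this per-length scale. In both orders, the gap between Mcm2 and Mcm5 in Teffs was the sole gap between neighbours wider than the SD of each.

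Promoters were searched because E2F factors are known to drive these genes and because members on opposite sides of 0 can be compared by sequence. RefSeq promoters (250 bases before to 50 after the start, GRCm38.p6) were matched by symbol for 29 of the 37 members. Entries were not matched for Ccne2, Gins1, Gins2, Gins4, Gmnn, Mcm4, Pole and Rfc2. The E2F letters searched on both strands were TTTCCCGC, TTTGGCGC, TTTCGCGC and TTTGCCGC. A match was found for 12 of 29 members (41.4%), against 2.6% of all 27025 genes with a promoter. The 5 letters of the CCAAT box, bound by NF-Y, were found for 17 members (58.6%), against 41.1% of all genes. E2F matches of Mcm5 and Mcm6, the subunits whose libraries lay on opposite sides, are shown with that of Pola1, in 90 bases each before the start on the coding strand, with matches in capitals:
Mcm5, chr8:75109315-75109404 (+): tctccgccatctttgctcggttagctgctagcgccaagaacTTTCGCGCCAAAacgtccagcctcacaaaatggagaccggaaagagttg
Mcm6, chr1:128359767-128359856 (-): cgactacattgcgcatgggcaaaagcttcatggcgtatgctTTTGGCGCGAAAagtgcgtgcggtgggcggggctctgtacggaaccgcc
Pola1, chrX:93632245-93632334 (-): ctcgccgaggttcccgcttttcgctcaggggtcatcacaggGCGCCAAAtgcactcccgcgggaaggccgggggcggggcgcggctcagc

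In the stretches of Mcm5 and Mcm6 the capitals hold 2 overlapping matches, 1 on each strand, which begin 153 and 149 bases before the start in Mcm5 and 110 and 106 bases before it in Mcm6. Mcm6 has a further E2F match that begins 47 bases before the start, outside the stretch shown. Both promoters carry a paired match. The fold changes of Mcm5 and Mcm6 have opposite signs, but both 95% intervals cross 0 (-3.36 to 0.60 and -0.27 to 1.74). Of the 12 members with an E2F match, 10 had a negative log2 fold change (median -1.32), and of the 17 without one, 15 did (median -0.87). A match describes letters in the promoter and not a bound site, and its part in the fold changes was not tested.

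CDC45 and the 4 GINS proteins complete the active helicase, and MCM10 helps to start it. Of these 6 genes, 5 had a negative log2 fold change, and 5 lacked counts in at least 1 Treg library. Gins3 was at 0 in Treg 1, Treg 2 and Treg 3, at 5.56 CPM in Treg 4 and at 26.5 and 17.4 CPM in Teffs. All Tregs were below both Teffs (-3.95 ± 2.58, edgeR unadjusted p = 0.164), and the fold rests on the counts of Treg 4. Cdc45 was at 0, 0.480, 51.0 and 34.4 CPM in Tregs and at 107 and 27.3 CPM in Teffs. Its Treg libraries fell into a pair near 0 and a pair within the Teff range. Gins1 and Gins2 were highest in Treg 4 among Tregs, at 14.1 and 31.8 CPM, and both overlapped Teffs. Mcm10 had no counts in Treg 1 and Treg 2 and reached 45.9 CPM in Treg 3, as high as Teff 1 at 45.5 CPM. Gins4 had a positive log2 fold change of 0.82 ± 1.14, at 12 to 54.7 CPM in Tregs against 29.3 and 6.98 CPM in Teffs, which overlapped. Exons of Gse1, on the other strand, overlap 67.3% of the exonic bases of Gins2.

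CDC6 and CDT1 load the helicase at origins, and geminin (Gmnn) blocks CDT1 once S phase has begun. Cdc6 had the most negative log2 fold change of the members. It was at 0 in Treg 1, Treg 2 and Treg 4, at 8.94 CPM in Treg 3 and at 59.0 and 34.7 CPM in Teffs. All Tregs lay below both Teffs (-4.38 ± 2.47, edgeR unadjusted p = 0.114), and the 95% interval runs from -10.1 to 1.32. Treg 3, the sole Treg library with Cdc6 counts, had the highest sums of fibroblast and keratinocyte markers. Teff 1, where Cdc6 was highest, had the next highest sums of both (323 and 162 CPM). Teff 2, with Cdc6 at 34.7 CPM, had sums of only 8.14 and 64.7 CPM. A link between these markers and Cdc6 was not tested. Without Treg 3, Cdc6 had no count in Tregs. Cdt1 was at 50.1, 97.8, 32.3 and 46.8 CPM in Tregs and at 16.5 and 90.7 CPM in Teffs, with all but Treg 2 inside the Teff range (0.08 ± 0.86). Gmnn was at 12.6 to 45.2 CPM in Tregs and at 76.3 and 34.5 CPM in Teffs, which overlapped (-0.86 ± 0.84).

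All 4 polymerase and primase genes had a negative log2 fold change. Pola1, the catalytic subunit of polymerase alpha, was at 1.62, 42.4, 29.8 and 40.4 CPM in Tregs and at 74.1 and 116 CPM in Teffs. The groups did not overlap (-1.73 ± 1.05, edgeR unadjusted p = 0.139), and 3 of the 4 Tregs were close together. Pole, the catalytic subunit of the leading strand polymerase, was at 0, 0.160, 21.9 and 25.4 CPM in Tregs and at 49.0 and 25.97 CPM in Teffs. Treg 4 was just below Teff 2, while Treg 1 and Treg 2 were at or under 3 counts. Pold1, of the lagging strand polymerase, had 1 high Treg library, Treg 4 at 56.6 CPM, inside the Teff range of 53.9 to 56.8 CPM, and 6.31 to 18.1 CPM in the other Tregs. Prim1, the primase, was at 14.1 to 128 CPM in Tregs and at 135 and 78.3 CPM in Teffs. The 4 genes summed to 126 ± 49.4 CPM in Tregs and 294 ± 28.8 CPM in Teffs, 2.33 times higher in Teffs.

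PCNA is the ring that tethers polymerases to DNA, the RFC complex loads it, and RPA coats single strands. Pcna varied least among Tregs relative to its mean, at 45.3, 35.7, 49.96 and 51.9 CPM in Tregs, against 82.2 and 77.7 CPM in Teffs. The groups did not overlap (-0.81 ± 0.57, edgeR unadjusted p = 0.197), and the 95% interval of -2.13 to 0.52 covers 0. The log2 fold change of Pcna stayed at -0.88 to -0.71 when any single library was left out. The annotation holds processed copies of Pcna (Pcna-ps1, Pcna-ps2) and of Tyms (Tyms-ps), so the counts of Pcna and Tyms are uncertain. The clamp loader genes differed among themselves. Rfc3 was at 0 in Treg 1 and Treg 2 and at 56.6 CPM in Treg 3, above both Teffs at 40.9 and 49.0 CPM. Rfc4 was at 0.160 to 33.4 CPM in Tregs against 56.4 and 30.4 CPM in Teffs (-1.37 ± 1.49). Rfc2 averaged 144 ± 56.7 CPM in Tregs, against 122 ± 25.8 CPM in Teffs (0.24 ± 0.49, 95% interval -0.90 to 1.38). Rfc5 had the most positive log2 fold change of the members, 2.53 ± 2.64, from 27.2 and 38.5 CPM in Treg 2 and Treg 4, 0.351 CPM in Treg 3, none in Treg 1, and 3.18 and 2.52 CPM in Teffs. Rpa1, which also serves DNA repair outside S phase, had the highest level per length of the members in Tregs, 79.6 CPM per kb, and the third highest in Teffs, 72.2 CPM per kb. Its fold change of 0.14 ± 0.57 became -0.42 without Treg 1, which stood at 875 CPM where the other Tregs were at 244 to 347 CPM.

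FEN1 trims the flaps between lagging strand fragments and LIG1 seals them. Fen1 was at 22.9, 18.4, 20.7 and 37.0 CPM in Tregs and at 107 and 55.8 CPM in Teffs. Tregs were tightly grouped and all below both Teffs, 3.29-fold lower by means, with a log2 fold change of -1.72 ± 0.72 (edgeR unadjusted p = 0.0452, adjusted p = 1.0). Fen1 (chromosome 19, 10199132 to 10204169, GRCm38) shares 84.2% of its annotated exonic bases with exons of Tmem258 and Gm10143 on the other strand. Whether counting used strand was not given in the sources used here, so the reads of these genes cannot be told apart there. Without Teff 1 the fold change was -1.18. Lig1 was at 122, 52.5, 77.8 and 118 CPM in Tregs and at 147 and 137 CPM in Teffs, a smaller gap without overlap (-0.62 ± 0.49, edgeR unadjusted p = 0.240).

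**Figure D4:**
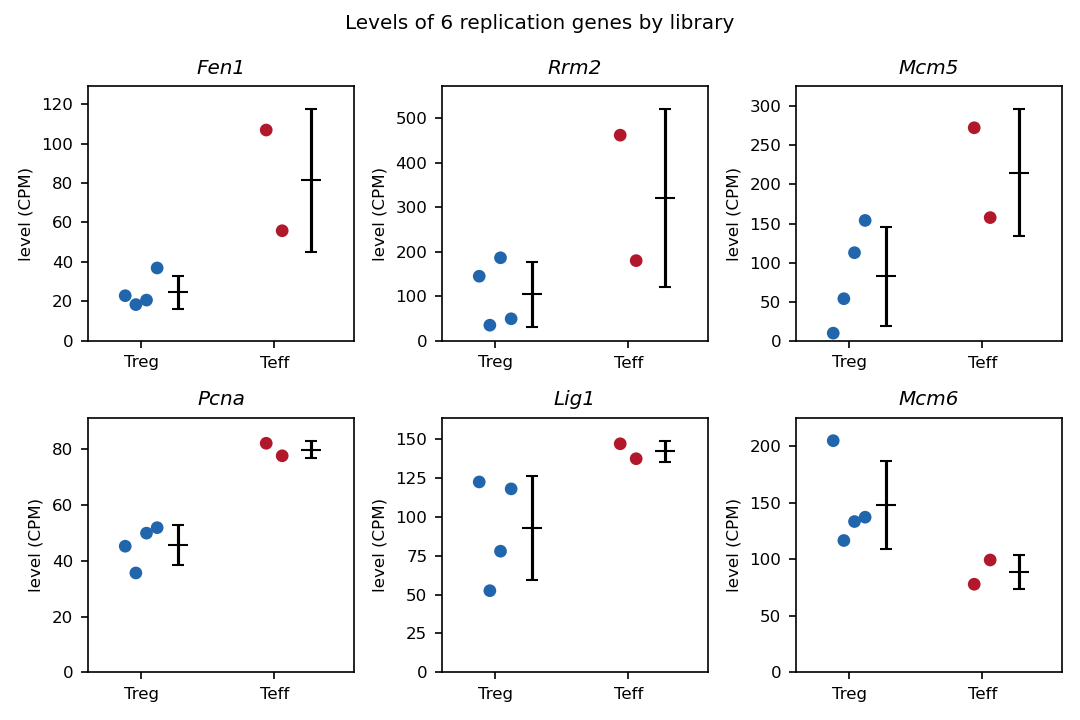
Level in CPM (y axis, from 0) of 6 replication genes in each library, with Tregs in blue and Teffs in red, and bars for the mean ± SD (n = 4 and n = 2). Tregs lie below both Teffs for Fen1, Mcm5, Pcna and Lig1, above both for Mcm6, and overlap Teff 2 for Rrm2.

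Deoxynucleotides come from ribonucleotide reductase (Rrm1 and Rrm2, of which RRM2 is made in S phase), thymidylate synthase (Tyms) and thymidine kinase (Tk1). All 4 genes had a negative log2 fold change. Rrm2 was at 145, 35.4, 187 and 49.8 CPM in Tregs and at 462 and 180.4 CPM in Teffs. Treg 3 lay just above Teff 2, so the groups overlapped (-1.62 ± 0.71, edgeR unadjusted p = 0.0528). In the authors' deposited table Rrm2 is the member with the lowest p, 0.0225, at an FDR of 1. Rrm2 was also the member with the highest level per length in Teffs, 116 CPM per kb. Rrm1 was at 251, 175 and 142 CPM in Treg 1, Treg 3 and Treg 4 and at 0.480 CPM in Treg 2, against 376 and 229 CPM in Teffs. Tyms was at 22.4, 20.5, 62.6 and 30.1 CPM in Tregs and at 89.1 and 63.6 CPM in Teffs, without overlap (-1.17 ± 0.74). Tk1 ran from 2.24 CPM in Treg 2 to 77.5 CPM in Treg 4, on both sides of Teffs at 54.4 and 40.3 CPM.

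CAF-1 (Chaf1a and Chaf1b are its large subunits) places histones on new DNA, and UHRF1 brings the maintenance methylase DNMT1 to it. All 3 genes had a negative log2 fold change. Uhrf1 was at 0, 42.7, 6.49 and 37.1 CPM in Tregs and at 80.8 and 70.9 CPM in Teffs, without overlap (-1.81 ± 1.61, edgeR unadjusted p = 0.292). Chaf1a was at 0, 0.960, 32.6 and 3.28 CPM in Tregs and at 24.2 and 38.8 CPM in Teffs, and exons of Ubxn6 on the other strand overlap 52.5% of its exonic bases. Chaf1b was at 12.1 to 96.0 CPM in Tregs and at 91.5 and 71.3 CPM in Teffs.

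Cyclin E (Ccne1 and Ccne2) starts S phase with CDK2, and E2F1 is an activator among the E2F factors. All 3 genes had a negative log2 fold change. Ccne2 was at 0 in Treg 1 and Treg 2, at 39.1 and 25.8 CPM in Treg 3 and Treg 4 and at 74.1 and 58.1 CPM in Teffs. The groups did not overlap (-2.03 ± 2.08, edgeR unadjusted p = 0.358). Ccne1 was at 0, 20.6, 16.7 and 8.42 CPM in Tregs and at 27.3 and 23.5 CPM in Teffs, also without overlap. E2f1 was at 49.2, 12.8, 2.104 and 20.8 CPM in Tregs and at 44.1 and 27.5 CPM in Teffs, with Treg 1 above both.

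**Figure D5:**
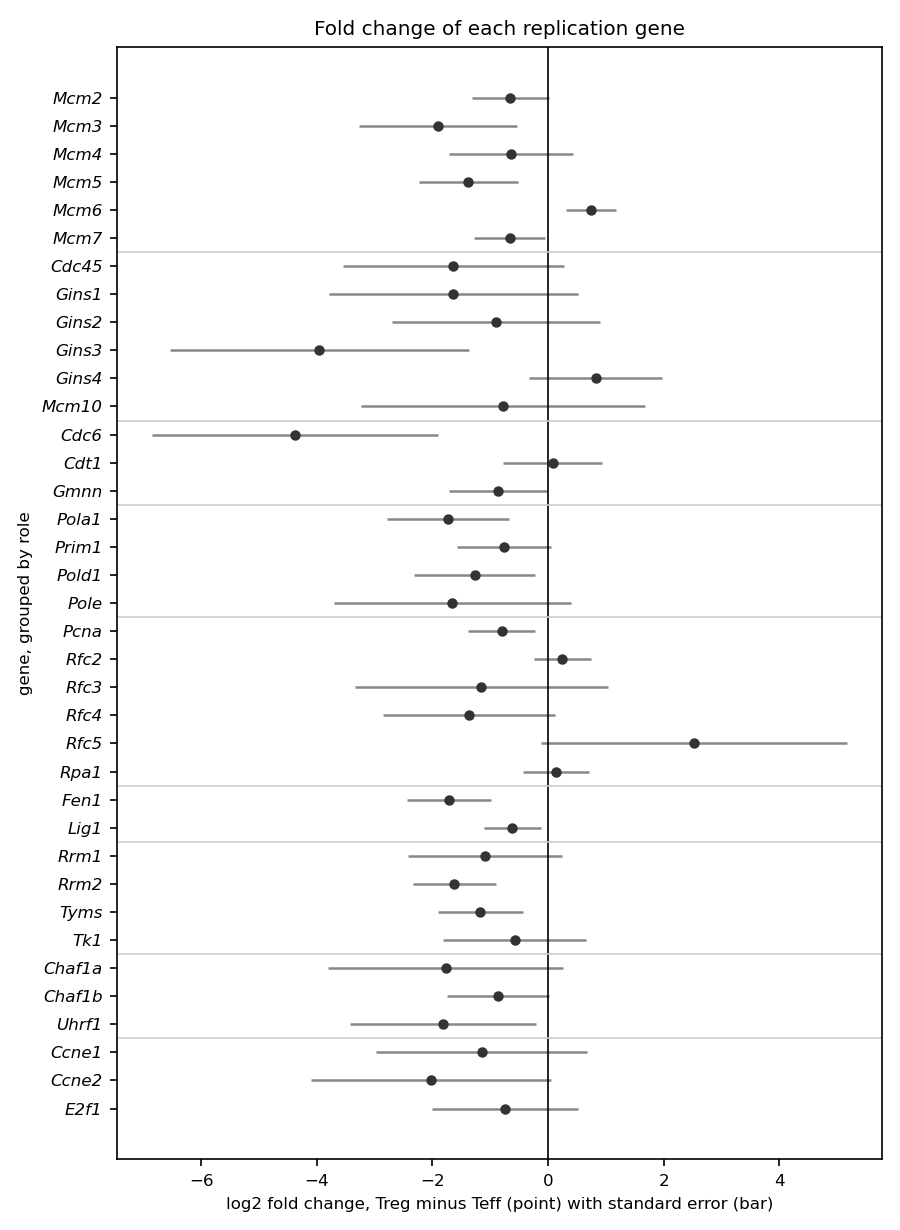
Log2 fold change, Treg minus Teff (x axis), of the 37 genes grouped by role (y axis), with points for the estimate and bars for its SE. Points lie left of 0 for 31 genes, from -4.38 (Cdc6) to 2.53 (Rfc5), and SEs run from 0.44 (Mcm6) to 2.64 (Rfc5).

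Summed by role, Treg levels lay below both Teffs in 6 of the 9 role groups: licensing factors, polymerases, fragment joining, nucleotide supply, chromatin assembly and G1/S regulators. Sums were made for listed genes alone, so this count has no share over all genes beside it. For nucleotide supply the margin was small, with Treg 1 at 453 CPM and Teff 2 at 513 CPM. The G1/S regulators had the largest ratio of means, 48.9 ± 10.9 CPM in Tregs against 127 ± 25.7 CPM in Teffs. The helicase core, its partners and the group of clamp, loader and RPA overlapped. The last of these stood at 687 ± 311 CPM in Tregs, against 696 ± 204 CPM in Teffs. The most abundant gene of that group was Rpa1 (444 ± 290 CPM in Tregs against 403 ± 162 CPM in Teffs).

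A further 73 genes of the replication pathway (ORC and firing factors, remaining polymerase, RPA and loader subunits, fork protection, nucleotide, chromatin and G1/S genes) were all tested. Their log2 fold changes were less one-sided, with 48 of 73 negative (46.6% of all genes tested were) and a median of -0.31. In edgeR, 0 were called and 1 had an unadjusted p under 0.05 (0.0425% and 4.73% of all genes). DESeq2 called 1 (2.08% of genes). In both tests that gene was Samhd1, which encodes an enzyme that degrades deoxynucleotides. Samhd1 was at 1349, 1180.3, 754 and 1102 CPM in Tregs and at 338 and 391 CPM in Teffs. All Tregs were above both Teffs (1.59 ± 0.36, edgeR adjusted p = 0.381, DESeq2 adjusted p = 0.000603), opposite in sign to the 4 nucleotide supply genes among the members. The 3 most abundant of these genes were Ccnd2 (cyclin D2, 1702 ± 408 CPM in Tregs against 1353 ± 126 CPM in Teffs), Samhd1 and Rbbp4 (a histone chaperone, 298 ± 141 against 527 ± 117 CPM). The largest fold changes at a mean of 10 CPM or more were those of Shmt1 (a folate enzyme, 3.16 ± 2.29), Cdk6 (a G1 kinase, 2.57 ± 1.36) and Clspn (a fork checkpoint protein, -2.40 ± 1.69), none of them called. By subgroup, 7 of 7 chromatin genes and 12 of 14 fork protection genes were negative, while 6 of 13 ORC and firing genes were.

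The 20 mitosis genes, which act after replication, were all negative (46.6% of all genes tested were), with a median of -1.94. All Tregs lay below both Teffs for 11 of them (9.49% of all genes). Their sum was 421, 597, 761 and 948 CPM over the Tregs, against 2477 and 2107 CPM for the Teffs. In edgeR 0 of them were called, with 2 at an unadjusted p under 0.05 (0.0425% and 4.73% of all genes). Top2a, the topoisomerase that untangles copied DNA, ranged from 135 to 235 CPM over the Tregs, against 660 and 597 CPM for the Teffs. Its log2 fold change was -1.84 ± 0.34 (edgeR adjusted p = 0.227), and DESeq2 called it (DESeq2 adjusted p = 5.91e-05). Mki67, which encodes Ki-67, ranged from 23.8 to 322 CPM over the Tregs, against 506 and 580 CPM for the Teffs.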

How the data were processed

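The authors deposited 1 table with raw whole-number counts per gene in 6 library columns, per the file headers and the values, besides their own comparison. That comparison gives fold changes and mean CPM that the authors deposited on the log2 scale, with deposited p-values. Per the labels' protocols, cDNA libraries for low input (SMARTer) were made from column-purified RNA of sorted cells. Build mm10 and HTSeq 0.6.1, Bowtie2 2.1.0.0, CASAVA 1.8.2, SAMtools 0.1.19.0 and TopHat2 2.0.12 are listed in the submitters' processing notes. Annotation, strand setting and the authors' test were not given in the sources used here. Rows that name no gene, 3 with 88.0% to 90.2% of column totals, were left out.

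Genes passing filterByExpr (smallest count 10) were kept, 11775 of 15106. The main test was edgeR 4.0.16's quasi-likelihood F test (R 4.3.3, limma 3.58.1) with TMM scaling, group alone and all 6 libraries, with calls where the Benjamini-Hochberg adjusted p was under 0.05. Each SE is the absolute log2 fold change over the root of F. DESeq2 1.42.0, other scalings, filters, left-out libraries and a replicate block were alternatives. The model was tested on simulated data. Overlap and length use GENCODE M21 exons (GRCm38). Named genes were all 37 members, Foxp3, Mki67 and Top2a. Of the other pathway genes, those past a test, the 3 most abundant and the 3 with the largest fold change were named. The members and lists were chosen with earlier results of these data known. An exact permutation test of 4 against 2 libraries cannot go below p = 0.0667 (two-sided) and was not used. Counting floors cover counting error only.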

Additional observations from a re-analysis of the deposited data

Results flagged for a closer look

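Among the 37 members, 4 had a Treg library far from the other 3 by Dixon's criterion. Chance gives about 1 in 20 for normally distributed values, but 19.6% of the 11686 tested genes with unequal Treg values met the criterion here, a larger share than among the members. Any gene with counts in a single Treg library meets it, as Gins3 and Cdc6 did. Gins3 was at 5.56 CPM in Treg 4 and at 0 in the other Tregs. Cdc6 was at 8.94 CPM in Treg 3 and at 0 in the other Tregs. Chaf1a was at 32.6 CPM in Treg 3, with the next Treg library at 3.28 CPM. Rpa1 was at 875 CPM in Treg 1, with the next at 347 CPM. For each of them the library that stood apart was the highest.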

How the results depend on the processing

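No member was called under any setting run, and the number with a negative log2 fold change stayed at 29 to 32. There were 29 members negative under every planned setting that kept them. Members at an unadjusted p under 0.05, 1 in the main test, numbered 2 with upper-quartile scaling and 0 to 3 when a library was left out (0 without Treg 2 or Teff 1, 2 without Treg 3 or Treg 4, 3 without Treg 1), where 1.41% to 7.04% of all genes did. The median of -1.09 ranged from -1.32 to -0.70 when a library was left out. Members with all Tregs below both Teffs, 12 with all libraries, numbered 11 with DESeq2's size factors, 17 with upper-quartile scaling and 13 to 26 when a library was left out (9.1%, 11.3% and 13.5% to 18.9% of all genes). The settings for that count were chosen after seeing the data. Of the other pathway genes DESeq2 called 1, Samhd1, and edgeR 0. Upper-quartile scaling moved the median of all genes from 0.07 to -0.04.

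Signs turned without Teff 1 for Mcm4 (0.32), Mcm10 (1.99) and Cdt1 (-0.69), without Treg 2 for Cdt1 (-0.32), without Treg 1 and without Teff 2 for Rpa1 (-0.42 and -0.24), and with upper-quartile scaling for Cdt1 (-0.059); the cause was not tested. Other left-out libraries gave up to 1.76 for Cdt1 and 0.62 for Rpa1, and down to -1.25 for Mcm4 and -2.72 for Mcm10.

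The numbers 1 and 2 are shared between groups. They were taken as names because the labels do not say that equal numbers mark a shared animal. Deviations of same-numbered libraries from their group means correlated at -0.01 and 0.17. With 2 Teff libraries these deviations mirror each other, so the correlations cannot tell paired from unpaired libraries. A replicate block uses the 4 libraries with these numbers. It gave 7 members at an unadjusted p under 0.05 (4.94% of all genes), a median of -2.37 (-0.49 over all genes, 63.4% of them negative), 26 members with both Tregs below both Teffs (27.1% of all genes) and -0.79 for Rfc5. The same 4 libraries without the block, added after seeing the data, gave 9 (12.6% of all genes), a median of -1.82 (-0.047 over all genes) and 26. Depth limits genes near 3 counts, and the SE of members, median 1.14, leaves most intervals across 0.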
